A study of Mus musculus with 16 samples.

Results

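The genotype by medium interaction asks whether smooth muscle cells from mice without arginase 1 in the red blood cell lineage answer a lipid-loading medium differently from cells of their littermates. It was measured as the change from DMEM to DIAM in KO cells minus the same change in WT cells, for every gene, and it draws on all 16 of the 16 RNA-seq libraries of the series. A positive log2 value means that KO cells gained more, or lost less, transcript in DIAM than WT cells did. A negative value means the reverse.

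The cells were primary smooth muscle cells from the aorta of male C57BL/6J mice. RBC.ARG1-KO mice carried a Cre transgene under the erythropoietin receptor (EpoR) together with floxed Arg1 alleles, and RBC.ARG1-WT littermates served as controls. Whether the littermates carried Cre or floxed alleles, and the age of the mice, are not given in the sources used here. Control cultures of each genotype stayed in DMEM with 10% fetal bovine serum. DIAM cultures were switched to DMEM with 0.1 µM dexamethasone, 1 µM insulin and 50 µg/mL L-ascorbic acid for 10 days to make them store lipid, and whether serum was kept in it is not given. Each of the 4 groups (WT DMEM, KO DMEM, WT DIAM and KO DIAM) had 4 libraries. The design text calls them 4 biological replicates and the library protocol speaks of triplicates, so p-values measure the spread between these cultures, which may be partly technical. The Cre acts in red blood cell precursors, so the cultured cells themselves are not the lineage the deletion targets. Cells of KO and WT mice differ in the animal they came from.

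Dexamethasone acts through the glucocorticoid receptor and insulin through its receptor kinase. Together they are the classical way to push mesenchymal cells to take up, make and store fat. Smooth muscle cells of the artery wall that fill with lipid lose contractile proteins and are one source of the foam cells of atherosclerotic plaques. Fat storage rests on fatty acid synthesis, on the enzymes and coat proteins of the lipid droplet, and on lipases. Mitochondrial fatty acid oxidation and the citrate cycle burn or recycle the same carbon. Arginase 1 splits arginine into ornithine and urea and so competes with nitric oxide synthase for arginine.

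Totals ran from 37221313 to 47626242 estimated counts per library, and 14217 of 20581 genes reached 1 CPM (counts scaled to a common library size) in at least 4 libraries and were tested. Arg1, the deleted gene of the red cell lineage, had 3, 4, 3 and 3 counts in the WT DMEM libraries and 12, 22, 2 and 49 in KO DMEM. In DIAM it had 1, 9, 0 and 5 counts in WT and 3, 4, 2 and 1 in KO. These counts were too low to test and do not check the genotype labels. The other arginase, Arg2, had at most 8 counts in any library and Epor at most 27. Odc1, which turns ornithine into the polyamine putrescine, was tested. Its interaction was -0.10 ± 0.10 (log2, SE; edgeR adjusted p = 0.6601; -0.15 to -0.033 with 1 library left out), with 118 to 132 CPM in WT DIAM and 103 to 118 in KO DIAM. All 10 genes of a list of aortic smooth muscle identity were present. They summed to 2521 to 4282 CPM over the DMEM libraries and 1204 to 2398 over the DIAM libraries. One library stood apart: WT DIAM replicate 2 had 35.3 on the second principal component of all genes, against 3.79 to 17.5 in the other WT DIAM libraries and -26.7 to -6.42 in KO DIAM. List medians and counts printed below are given with and without WT DIAM replicate 2 where that library moved them by over 1.5 times.

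No gene passed the interaction test. With edgeR's quasi-likelihood test and Benjamini-Hochberg adjustment over 14217 genes, 0% (0 genes) had an adjusted p under 0.05 and the smallest adjusted p was 0.156. Before adjustment, 2255 genes (15.9%) had p under 0.05, where 5% of the genes would be 711. Of these, 1109 were positive, which is 7.80% of the genes tested, and 1146 were negative, which is 8.06%. Adjusted p values were under 0.2 for 599 genes, 273 positive and 326 negative. DESeq2 on the same genes called 225 at adjusted p under 0.05, 97 of them positive (0.682% of 14213) and 128 negative (0.901%). The authors' deposited table lists 234 genes of 14858 at an adjusted p under 0.05 for this contrast, 104 positive and 130 negative. The calls shared 219 genes, which is 97.3% of the DESeq2 calls made here and 93.6% of those in the authors' deposited table. Every one of the 225 genes had an unadjusted edgeR p of at most 0.0104. The edgeR adjusted p values of these genes ran from 0.156 to 0.207. The DESeq2 calls thus had small unadjusted edgeR p values, while adjusted p values differed between the tools at the same cutoff of 0.05. Why they differed was not tested. In what follows a gene called by DESeq2 is named as such, and none of these genes is a call of the edgeR test.

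The DESeq2 calls depended on single libraries. Leaving out 1 library in turn gave between 35 calls (without KO DIAM replicate 2) and 601 (without WT DIAM replicate 3). Counts fell by more than 1.5 times without WT DMEM replicate 2 (51 calls), replicate 3 (114) or replicate 4 (126), KO DMEM replicate 2 (56), WT DIAM replicate 1 (59) or replicate 2 (104), and KO DIAM replicate 1 (67). They rose by more than 1.5 times without WT DMEM replicate 1 (495), WT DIAM replicate 4 (574) or KO DIAM replicate 4 (433). In all 16 of these fits 28 genes were called, 6 positive and 22 negative. Among them were Kif23, Coro1c, Hmga2, Lat2, Ptprn, Tcp11l1, Zdhhc18, Acadm and Mdh1. Other genes named further on were called in fewer of these fits. DESeq2 kept Agpat2, Bub1 and Gpx7 in 4, and Col1a1, Gstm1, Idh3b and Idh3g in 5. It kept Acaca, Acss2, Pnpla2 and Uqcrc1 in 6, and Fitm2, Gsn, Insr, Lpin1 and Ogdh in 7.

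**Figure D1:**
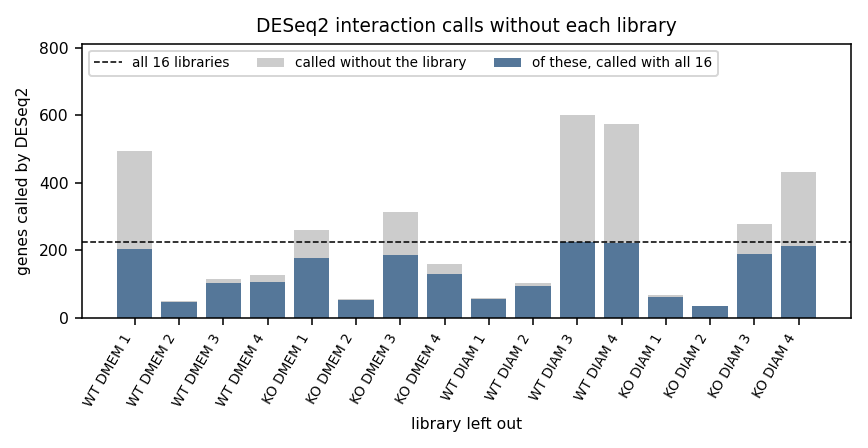
Genes called by DESeq2 for the interaction (vertical axis) when each library on the horizontal axis is left out; grey bars give all calls, blue bars those also called with all 16 libraries, and the dashed line the 225 calls with all 16. The bars run from 35 without KO DIAM replicate 2 to 601 without WT DIAM replicate 3.

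The absolute difference between the genotypes was larger in DIAM than in DMEM for most genes. For the 2255 genes with unadjusted p under 0.05, the median absolute difference between KO and WT was 0.072 (log2) in DMEM and 0.32 in DIAM, and it was larger in DIAM for 2010 of them. For the 225 genes called by DESeq2 the medians were 0.072 and 0.62, with 216 larger in DIAM. Over all genes tested they were 0.062 and 0.13, with 9715 of 14217 larger in DIAM. The 2255 and the 225 genes were chosen for their interaction, so their medians describe where it lay and are no test. Absolute differences also grow with the spread between libraries, which was not set beside them. The commonest form was a larger response in KO in the same direction as in WT, as it also was over all genes tested. Of the 2255 genes, 719 (31.9%) were up in both genotypes and more so in KO. Another 597 (26.5%) were down in both and more so in KO, together 58.4%. A smaller response in KO was seen in 235 genes that were up and 172 that were down, together 18.0%. The remaining 23.6% had opposite signs, with 314 up in WT and down in KO and 218 the other way. Over all genes tested 3665 and 3754 were up or down in both and more so in KO, against 2274 and 2542 with the smaller response in KO.

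**Figure D2:**
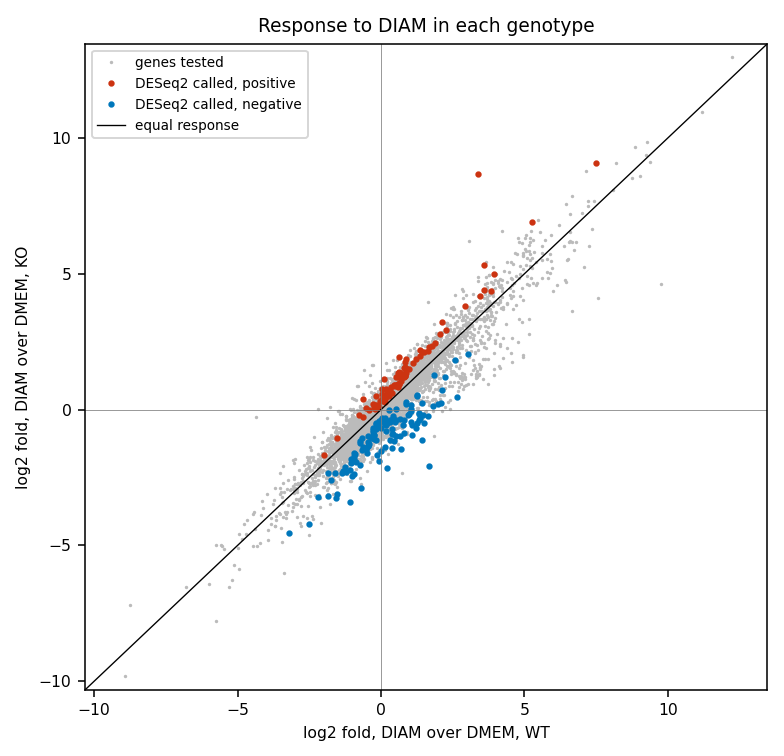
Log2 fold of DIAM over DMEM in WT (horizontal axis) and in KO (vertical axis) for the 14217 genes tested (grey); the 97 positive and 128 negative genes called by DESeq2 are red and blue, and the line marks an equal response. Called genes lie on both sides of the line, and many of them lie farther from 0 in KO than in WT.

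The 10 genes with the smallest edgeR p for the interaction were Kif23, Coro1c, Zdhhc18, Tcp11l1, Ptprn, Bhlhe22, Hmga2, Acadm, C430002N11Rik and Lat2. Acadm had the only positive value among them. Their edgeR adjusted p values lay between 0.156 and 0.171, and DESeq2 called all 10. The first and the eighth show the groups described further on, cell division and fatty acid breakdown. Most members of the cell cycle list had negative values, so the promoters of Kif23 and of Plk1, a mitotic kinase of that list, are shown here beside that of Fasn, the fatty acid synthase. Each runs 5′ to 3′ on the strand of the gene, from 250 bases before the start of the gene to 30 after it, as RefSeq gives it on GRCm38.p6. Capitals mark the CCAAT box (CCAAT, or ATTGG on the other strand) and, in Kif23, also the cell cycle genes homology region (CHR; TTTGAA, or TTCAAA on the other strand), with both motifs searched in Kif23 and Plk1 and the CCAAT box in Fasn. The windows are chr9:61946770-61947049 on the minus strand, chr7:122159185-122159464 on the plus strand and chr11:120824518-120824797 on the minus strand.
Kif23: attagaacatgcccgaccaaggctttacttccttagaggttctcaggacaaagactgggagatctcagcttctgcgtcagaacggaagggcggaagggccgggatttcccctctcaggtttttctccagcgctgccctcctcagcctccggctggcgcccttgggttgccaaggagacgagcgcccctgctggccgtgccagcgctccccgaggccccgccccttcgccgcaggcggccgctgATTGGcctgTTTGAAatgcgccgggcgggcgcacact
Plk1: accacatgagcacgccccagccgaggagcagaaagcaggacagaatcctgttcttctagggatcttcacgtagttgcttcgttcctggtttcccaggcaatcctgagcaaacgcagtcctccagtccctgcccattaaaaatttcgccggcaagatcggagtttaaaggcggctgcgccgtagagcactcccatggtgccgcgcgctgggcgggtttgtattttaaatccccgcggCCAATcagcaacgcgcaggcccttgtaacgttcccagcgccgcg
Fasn: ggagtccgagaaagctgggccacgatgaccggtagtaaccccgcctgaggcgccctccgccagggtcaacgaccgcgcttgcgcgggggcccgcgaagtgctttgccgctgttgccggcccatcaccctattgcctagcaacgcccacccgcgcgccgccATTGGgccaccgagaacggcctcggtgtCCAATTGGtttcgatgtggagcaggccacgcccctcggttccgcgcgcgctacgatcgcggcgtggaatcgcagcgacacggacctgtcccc
In Kif23 the CCAAT box began 7 bases before the start and the CHR at base 3 after it. In Plk1 the CCAAT box began 14 bases before the start, and no CHR was found. In Fasn CCAAT boxes began 90, 62 and 59 bases before the start, and the last pair overlap. The E-box (CACGTG) was also searched in Fasn and was not found. Of 28 cell cycle genes with a promoter in the RefSeq table (of 35 tested), 22 (78.6%) held a CCAAT box in this window and 10 (35.7%) a CHR. Over the promoters of all 27025 genes in the table the shares were 36.6% and 17.4%. Among the matched genes called by DESeq2 with a negative interaction, 37 of 94 (39.4%) held a CCAAT box and 9 (9.57%) a CHR. A match describes the letters and is not a measured binding site.

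Kif23, a kinesin of the central spindle needed to split dividing cells, had the smallest p. In DMEM it stood at 6.38, 5.75, 4.25 and 3.93 CPM in the WT libraries and at 6.15, 4.78, 4.56 and 4.73 in KO. In DIAM it stood at 2.08, 3.62, 2.95 and 3.77 CPM in WT and at 0.387, 0.631, 0.793 and 0.934 in KO. The genotypes overlapped in DMEM and did not in DIAM, where every KO library was below every WT library. The fold of DIAM over DMEM was 0.612 in WT and 0.136 in KO, a response 4.497-fold lower in KO. The interaction was -2.17 ± 0.34 (log2, SE; 95% interval -2.92 to -1.42), with an edgeR adjusted p of 0.156 and a DESeq2 adjusted p of 9.3e-06. With any 1 library left out it stayed within -2.35 to -1.97.

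Hmga2, an architectural chromatin protein of growing and undifferentiated mesenchymal cells, was higher in every DIAM library than in any DMEM library. WT libraries went from 11.1, 10.4, 13.3 and 9.69 CPM in DMEM to 55.6, 66.9, 44.6 and 39.99 in DIAM. KO libraries went from 10.9, 14.5, 11.4 and 12.4 CPM to 26.4, 26.4, 30.3 and 29.9. All KO DIAM libraries were below all WT DIAM libraries, while the DMEM libraries overlapped. The fold of DIAM over DMEM was 4.65 in WT and 2.302 in KO, an interaction of -1.01 ± 0.20 (DESeq2 adjusted p = 0.00311). It was -0.87 without WT DIAM replicate 2, which held the highest value.

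Coro1c, an actin-binding coronin, was the most precisely measured of the 10. WT libraries had 156, 153, 151 and 141 CPM in DMEM and 149, 148, 144 and 133 in DIAM. KO libraries had 145, 153, 158 and 151 CPM in DMEM and 115, 116, 111 and 108 in DIAM. The 4 KO DIAM libraries were below the other 12. The interaction was -0.37 ± 0.068 (log2, SE; DESeq2 adjusted p = 0.00107), and leaving out any 1 library kept it within -0.40 to -0.34.

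Tcp11l1 had 32.2, 31.5, 29.9 and 32.99 CPM in WT DMEM, 32.8, 38.7, 30.3 and 32.9 in KO DMEM, 28.3, 30.8, 24.7 and 23.1 in WT DIAM and 18.2, 18.2, 18.8 and 15.3 in KO DIAM. Its KO DIAM libraries were below all others, with folds of 0.844 in WT and 0.523 in KO. Ptprn, a transmembrane protein of secretory granules in the tyrosine phosphatase family, was lower in DIAM than in DMEM in every library of both genotypes. It stood at 41.6, 33.8, 39.99 and 38.2 CPM in WT DMEM and 36.6, 45.8, 39.5 and 35.3 in KO DMEM. In DIAM it stood at 20.7, 23.01, 17.9 and 17.8 CPM in WT and 10.2, 11.4, 12.8 and 13.4 in KO, with no overlap. The interactions were -0.69 ± 0.13 for Tcp11l1 and -0.77 ± 0.15 for Ptprn (DESeq2 adjusted p = 0.00311 for each).

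Bhlhe22, a basic helix-loop-helix transcription factor, and the transcript model C430002N11Rik had folds of DIAM over DMEM on opposite sides of 1 in the 2 genotypes, 2.12 and 0.526 for the first. Bhlhe22 had 0.971, 0.774, 0.972 and 0.791 CPM in WT DMEM and 1.69, 2.39, 1.44 and 1.93 in WT DIAM. KO libraries had 0.994, 1.6, 0.805 and 1.51 CPM in DMEM and 0.336, 0.728, 0.602 and 0.908 in DIAM. For C430002N11Rik the WT libraries had 1.595, 0.851, 1.205 and 1.09 CPM in DMEM and 3.797, 4.66, 3.02 and 1.93 in DIAM, and the KO libraries 1.49, 2.14, 1.88 and 1.27 and 1.52, 0.801, 1.48 and 1.04. Both had their highest values in WT DIAM, with all KO DIAM libraries below. The interactions were -2.01 ± 0.40 and -1.98 ± 0.41, on levels of a few CPM. Bhlhe22 was called by DESeq2 in 13 of the 16 fits that left out 1 library.

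Zdhhc18 and Lat2 differed from the other 8 in that every KO library was already above every WT library in DMEM. Among those 8, Acadm had lower KO levels in DMEM, with a KO minus WT difference of -0.18 (log2) there. Zdhhc18, a palmitoyltransferase that attaches fatty acids to proteins, had 29.4, 26.2, 25.8 and 25.4 CPM in WT DMEM and 39.6, 39.1, 38.1 and 35.7 in KO DMEM. In DIAM WT had 26.1, 31.98, 37.1 and 27.9 CPM and KO had 26.1, 29.7, 26.9 and 27.7. KO was higher than WT in every DMEM library and overlapped with it in DIAM. Lat2, an adaptor protein of leukocyte receptor signalling, had 4.3, 3.28, 2.58 and 4.52 CPM in WT DMEM and 6.93, 8.93, 6.53 and 6.38 in KO DMEM. In DIAM it had 1.17, 1.16, 1.51 and 1.097 CPM in WT and 0.671, 0.388, 1.09 and 0.8303 in KO. KO was thus the higher genotype in DMEM and the lower in DIAM, without overlap in either. The interactions were -0.67 ± 0.13 and -1.71 ± 0.35 (DESeq2 adjusted p = 0.00311 for each). Markers of leukocytes, a cell type that expresses Lat2, are given further on.

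Acadm, the medium-chain acyl-CoA dehydrogenase that opens each round of mitochondrial oxidation of mid-length fatty acids, had a larger response in KO. WT libraries went from 45.3, 50.2, 45.1 and 47.4 CPM in DMEM to 119.9, 105, 141 and 145 in DIAM. KO libraries went from 38.5, 39.9, 45.1 and 42.3 CPM to 199.5, 188, 154 and 176. All KO libraries were above all WT libraries in DIAM. In DMEM KO was the lower genotype, with the nearest pair of libraries almost equal. The fold of DIAM over DMEM was 2.72 in WT and 4.33 in KO, an interaction of 0.67 ± 0.14 (95% interval 0.37 to 0.97; edgeR adjusted p = 0.171; DESeq2 adjusted p = 0.00455). Without WT DIAM replicate 2, the lowest of its group, it was 0.59.

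**Figure D3:**
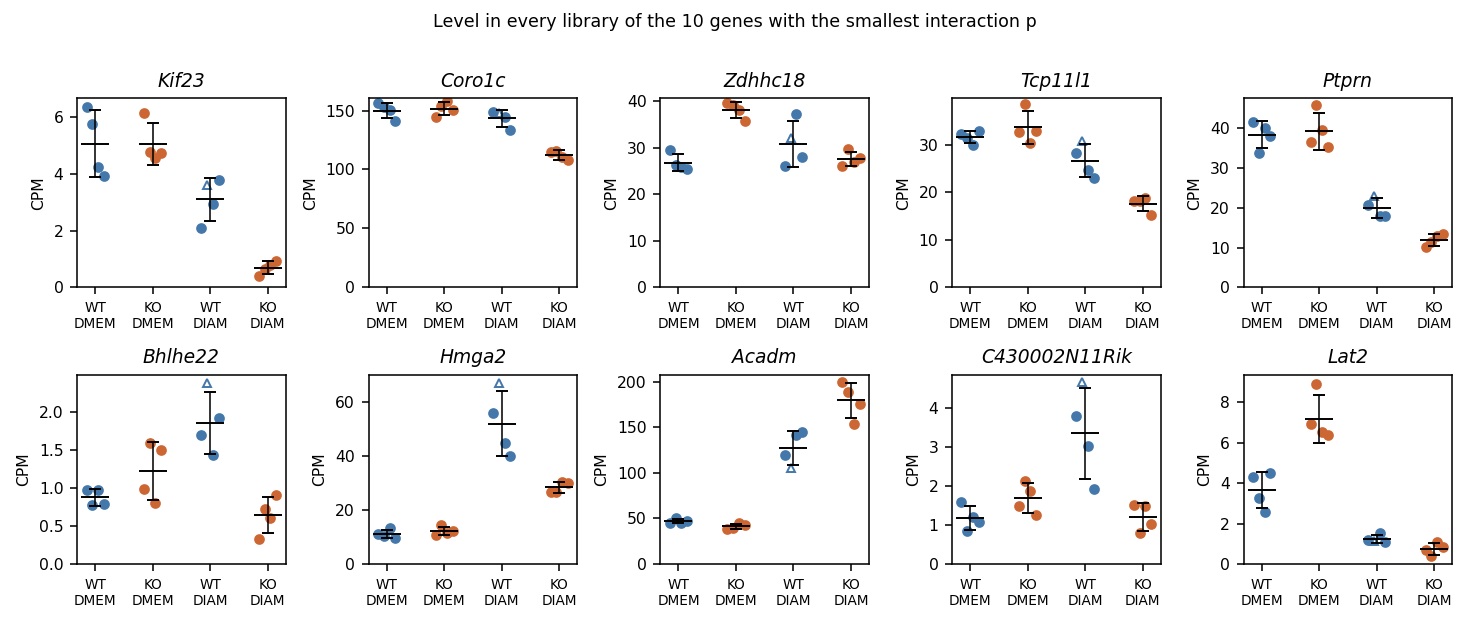
CPM (vertical axes, starting at 0) in each of the 16 libraries for the 10 genes with the smallest interaction p; blue points are WT, orange points KO, the open triangle is WT DIAM replicate 2, and black bars give the mean and SD of 4 libraries. In all panels but those of Zdhhc18 and Acadm the KO DIAM libraries lie below all WT DIAM libraries. The genes were chosen for a small interaction p, so this separation is a description. Its share over all genes tested was not counted.

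The gene lists described next hold genes that share a pathway, so their members are not independent of each other. Their shares are set beside the 7.80% positive and 8.06% negative at unadjusted edgeR p under 0.05 over all genes, whose median interaction was -0.00015. Where members beyond the one with the smallest p are named, they were named because DESeq2 called them, after their values were seen. No list held a gene called by edgeR. Genes named for a small p or a DESeq2 call were picked on the same values. Their separation between the genotypes in DIAM is thus a description and no further support. The share of all genes tested with such a separation was not counted.

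Genes of the fat cell and the lipid droplet had the highest positive median of the functional lists, 0.66 over 29 tested members. Of these, 28 were positive and 19 had an unadjusted p under 0.05, all positive. DESeq2 called 6. They were Fitm2, which helps lipid droplets bud from the endoplasmic reticulum, Pnpla2, the lipase that takes the first fatty acid off stored triglyceride, and G0s2, the inhibitor of that lipase. The others were Agpat2 and Dgat2, acyltransferases of triglyceride assembly, and Car3, a carbonic anhydrase abundant in fat tissue. The median response of the list from DMEM to DIAM was 3.33 (log2) in WT and 3.99 in KO. Without WT DIAM replicate 2 the median interaction was 0.50 and 17 members had p under 0.05.

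Pnpla2 stood at 30.03 to 33.1 CPM in the WT DMEM libraries and 28.5 to 31.7 in KO DMEM. In DIAM it reached 363, 221, 421 and 404 CPM in WT and 618, 599.9, 454 and 543 in KO. Every KO DIAM library was above every WT DIAM library, and WT DIAM replicate 2 was the lowest. DIAM over DMEM gave a fold of 11.02 in WT and 18.3 in KO, an interaction of 0.73 ± 0.21 (log2, SE; DESeq2 adjusted p = 0.0439) and 0.56 without that library. Fitm2, the member with the smallest p, had 54.7, 38.2, 62.4 and 58.6 CPM in WT DIAM and 84.8, 82.1, 66.1 and 73.7 in KO DIAM, from 16.9 to 20.2 in WT DMEM and 16.6 to 18.7 in KO DMEM. Its interaction was 0.62 ± 0.17. G0s2 had 47.8, 34.98, 55.1 and 56.6 CPM in WT DIAM and 84.1, 85.8, 73.5 and 62.2 in KO DIAM. The lipase and its inhibitor both had higher levels in every KO DIAM than in any WT DIAM library, with interactions of 0.73 and 0.77.

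Car3 had the steepest response of the named genes. It had 0.647, 0.851, 0.7398 and 1.14 CPM in WT DMEM and 0.34, 0.774, 0.341 and 0.741 in KO DMEM. DIAM libraries had 156, 100.0, 175 and 183 CPM in WT and 315, 349, 219.7 and 307 in KO, without overlap. The interaction of 1.56 ± 0.44 (DESeq2 adjusted p = 0.0239) rests partly on its DMEM levels of under 2 CPM, which averaged 0.844 CPM in WT and 0.549 in KO. Dgat2 had 80.9, 45.1, 96.99 and 104 CPM in WT DIAM and 155, 158, 101 and 135 in KO DIAM, and here the genotypes overlapped. Agpat2 had 117, 85.9, 137 and 144 CPM in WT DIAM and 209, 201, 149 and 183 in KO DIAM. Their interactions were 1.05 ± 0.33 and 0.66 ± 0.19, each with a DESeq2 adjusted p close to the threshold (0.0417 and 0.0494). DESeq2 kept Agpat2 in 4 and Dgat2 in 8 of the 16 fits that left out 1 library.

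Fatty acid synthesis and desaturation genes had a median interaction of 0.37 over 21 tested members. Of these 20 were positive, and 11 had p under 0.05, all positive. DESeq2 called 8: Slc25a1, the mitochondrial citrate exporter, Acly, which cuts citrate to acetyl-CoA, Acss2, which makes acetyl-CoA from acetate, Acaca and Acacb, the acetyl-CoA carboxylases, Fasn, Scd1, the desaturase that makes oleate, and Me1, a source of NADPH. Of these, Slc25a1, Acly, Acaca, Fasn and Scd1 act along the route from mitochondrial citrate to unsaturated fatty acid. The elongase Elovl6 of the same list had p under 0.05 and was not called by DESeq2. The list median of the response was 0.32 in WT and 0.74 in KO. With WT DIAM replicate 2 left out the median interaction was 0.34 and 10 members had p under 0.05.

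Slc25a1 stood at 124, 120.0, 123 and 119 CPM in WT DMEM and 118, 108, 122 and 117 in KO DMEM. DIAM libraries held 105, 97.4, 111 and 107 CPM in WT and 139, 139, 117 and 126 in KO. Its level was lower in DIAM than in DMEM in WT (fold 0.866) and higher in KO (fold 1.12), with an interaction of 0.37 ± 0.083 (DESeq2 adjusted p = 0.0112). Acly had 282 to 345 CPM in WT DMEM and 284 to 348 in KO DMEM. In DIAM it had 312, 243, 383 and 404 CPM in WT and 559.6, 583, 427 and 502 in KO. The fold was 1.03 in WT and 1.68 in KO, and all 4 KO DIAM libraries were above every other library.

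Acacb, which makes the malonyl-CoA that blocks fatty acid entry into mitochondria, had the smallest p of this list. It stood at 6.57, 5.57, 6.34 and 5.49 CPM in WT DMEM and 4.81, 4.88, 4.56 and 5.69 in KO DMEM, and at 9.59, 7.85, 12.1 and 12.8 in WT DIAM and 17.2, 20.7, 15.2 and 14.9 in KO DIAM. The interaction was 0.95 ± 0.21 (log2, SE; DESeq2 adjusted p = 0.00991), and 15 of the 16 fits that left out 1 library called it. Acaca, its cytosolic partner, had 317, 204, 388 and 421 CPM in WT DIAM and 579, 637, 447 and 542 in KO DIAM, with an interaction of 0.82 ± 0.24. KO DIAM libraries of both genes lay above all WT DIAM libraries.

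Fasn went from 280.3 to 375 CPM in WT DMEM and 287 to 325 in KO DMEM to 1369, 704, 1749 and 1908 in WT DIAM and 2964, 3253, 2356 and 2614 in KO DIAM. WT DIAM replicate 2 was far below the other WT DIAM libraries, and all KO DIAM libraries were above all WT DIAM libraries. DIAM over DMEM gave a fold of 4.34 in WT and 9.31 in KO, an interaction of 1.10 ± 0.31 with all libraries and 0.88 without that one. Scd1 had 389.8, 452, 439.9 and 445 CPM in WT DMEM and 341, 369, 402 and 458 in KO DMEM. Its DIAM levels were 5340.2, 3444, 5398 and 6371 CPM in WT and 8789, 9397, 6873 and 8451 in KO, with no overlap. The interactions had DESeq2 adjusted p values of 0.0242 for Fasn and 0.0165 for Scd1. Me1 had 311, 195, 364 and 365 CPM in WT DIAM and 590.4, 566, 453 and 441 in KO DIAM, and Acss2 51.5, 40.02, 54.1 and 63.8 and 86.2, 80.3, 65.3 and 80.04. Their interactions were 0.78 ± 0.23 and 0.71 ± 0.20.

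Fatty acid oxidation and ketone genes were positive in 26 of 29 tested members, with a median of 0.28, and 16 had p under 0.05, all positive. Acadm, described above, was the member with the smallest p. Without WT DIAM replicate 2 the list median was 0.25 and 11 members had p under 0.05.

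Nuclear genes of the respiratory chain were positive in 34 of 34 members, at a small median of 0.23, and 18 had p under 0.05. DESeq2 called Uqcrc1, a core subunit of complex III, and Atp5f1b, the catalytic beta subunit of ATP synthase. Uqcrc1 had 86.7 to 88.6 CPM in WT DMEM and 83.8 to 89.6 in KO DMEM, then 132, 118, 143 and 143 in WT DIAM and 179, 176, 151 and 163 in KO DIAM. Atp5f1b had 969, 843, 1023 and 1025 CPM in WT DIAM and 1307, 1260.3, 1089 and 1148 in KO DIAM. For both, every KO DIAM library was above every WT DIAM library, with interactions of 0.33 ± 0.089 and 0.38 ± 0.10. Without WT DIAM replicate 2 all 34 remained positive, with a median of 0.21 and 13 at p under 0.05. The 13 genes encoded in mitochondrial DNA had a median of 0.10 and 2 at p under 0.05. None had p under 0.05 without WT DIAM replicate 2, and the median was 0.061 without KO DMEM replicate 4 and 0.064 without KO DIAM replicate 2. The member with the smallest p was mt-Co2, with 162, 139, 156 and 105 CPM in WT DIAM and 251, 158, 147 and 216 in KO DIAM, which overlapped.

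Insulin and glucocorticoid pathway genes, the targets of the 2 hormones in the medium, were mixed. The glucocorticoid response list had a median response of 2.31 in WT and 2.51 in KO, and its median interaction was 0.11, with 7 members positive and 2 negative at p under 0.05 of 27. That median was 0.031 without WT DMEM replicate 4, 0.067 without KO DMEM replicate 3 and 0.066 without WT DIAM replicate 2, which also left 6 positive and 1 negative. Its member with the smallest p was Lpin1, the phosphatidate phosphatase that makes diacylglycerol, with 87.6, 56.6, 97.2 and 98.9 CPM in WT DIAM and 143, 143, 116 and 124 in KO DIAM and an interaction of 0.70 ± 0.20 (DESeq2 adjusted p = 0.0403). The insulin and IGF list had a median of 0.12, with 8 positive and 2 negative of 30 at p under 0.05, and of 0.039 with 7 and 1 when WT DIAM replicate 2 was left out. There DESeq2 called Insr, the insulin receptor itself. Insr had 36.2, 43.5, 42.4 and 48.6 CPM in WT DMEM and 40.8, 39.5, 41.1 and 40.7 in KO DMEM, and 62.9, 62.5, 72.0 and 80.9 in WT DIAM and 92.3, 88.97, 87.7 and 101 in KO DIAM. Every KO DIAM library was above every WT DIAM library, with an interaction of 0.48 ± 0.12.

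Cholesterol synthesis and uptake genes lay on both sides of 0, from -1.10 to 0.499. Their median response to DIAM was -1.09 (log2) in WT and -0.999 in KO, and their median interaction was 0.0095 over 25 members, with 3 positive and 1 negative at p under 0.05. Nsdhl, a sterol dehydrogenase of the late pathway, was called by DESeq2, with 49.99, 46.6, 46.1 and 48.7 CPM in WT DIAM and 57.3, 56.6, 50.1 and 53.6 in KO DIAM. The list median was 0.030 without WT DIAM replicate 2, with 3 and 0, and its sign changed in 5 of the 31 other settings. Genes of cholesterol efflux and scavenger receptors had a median of -0.051 with 2 members at p under 0.05 in each direction. This was -0.026 with 1 in each without WT DIAM replicate 2, and the median lay between -0.074 and 0.039 with any 1 library left out. Among genes of oxidative stress defence 7 of 29 were positive and 1 negative at p under 0.05, and 4 and 1 without WT DIAM replicate 2. DESeq2 called Cat, the peroxisomal catalase, Gstm1, a glutathione transferase, and Gpx7, a peroxidase of the endoplasmic reticulum. Cat had 173, 135, 193 and 182 CPM in WT DIAM and 249, 251, 206 and 239 in KO DIAM, and Gstm1 212, 174, 242 and 237 and 310.3, 334, 333 and 270.4. Gpx7 went the other way, with 25.0, 28.3, 21.7 and 18.7 CPM in WT DIAM and 12.5, 13.3, 14.1 and 18.5 in KO DIAM.

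**Figure D4:**
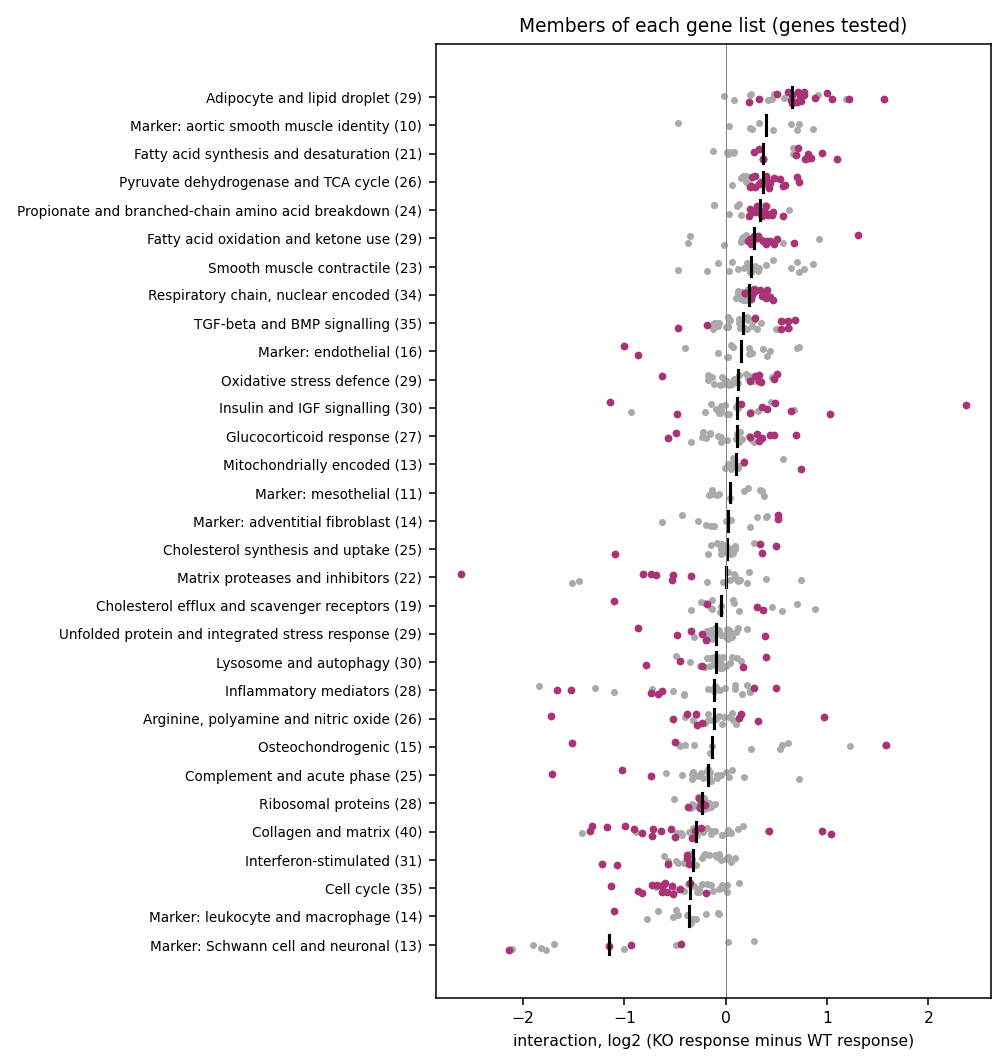
Interaction (log2, KO response minus WT response) of each tested member of the lists with at least 10 members; purple points have unadjusted edgeR p under 0.05, grey points do not, black bars are list medians, and the number of members is in brackets. Medians run from -1.15 for Schwann cell and neuronal markers to 0.66 for the adipocyte and lipid droplet list.

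Cell cycle genes had a median interaction of -0.35, with 32 of 35 members negative and 15 at p under 0.05, all negative. The median response to DIAM was -0.72 (log2) in WT and -1.01 in KO. DESeq2 called Plk1, the kinase that drives mitotic entry and spindle assembly, and Bub1, a kinase of the spindle checkpoint. Plk1 had 6.59, 8.64, 8.33 and 6.92 CPM in WT DMEM and 6.62, 7.02, 8.05 and 6.29 in KO DMEM. The levels in DIAM were 4.23, 4.61, 3.59 and 3.69 CPM in WT and 1.89, 2.38, 2.19 and 2.46 in KO, without overlap. The interaction was -0.73 ± 0.18 (DESeq2 adjusted p = 0.03398). Bub1 had 2.98, 3.33, 1.72 and 1.53 CPM in WT DIAM and 0.904, 0.971, 0.875 and 1.505 in KO DIAM, from 4.55 to 5.47 in WT DMEM and 4.37 to 5.73 in KO DMEM. KO DIAM replicate 4 was just below the lowest WT DIAM library. The DESeq2 adjusted p of Bub1 was 0.0476. DESeq2 kept Bub1 in 4 and Plk1 in 9 of the 16 fits that left out 1 library. Leaving out WT DIAM replicate 2, the list median was -0.26, with 34 negative and 11 at p under 0.05.

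Collagen and matrix genes were negative in 30 of 40 members, with a median of -0.29. At p under 0.05, 14 were negative and 3 positive. DESeq2 called Col1a1 and Col5a2, chains of fibrillar collagen, Tnc, the matrix protein tenascin C of injured and remodelling tissue, Thbs2, a thrombospondin, and in the other direction Ogn, a small leucine-rich proteoglycan. Tnc had 678, 833, 833 and 922 CPM in WT DMEM and 854, 833, 824 and 832 in KO DMEM. In DIAM it had 201, 329, 179 and 193 CPM in WT and 46.5, 92.9, 104 and 122 in KO. It was lower in DIAM than in DMEM in all libraries, and KO DIAM lay below WT DIAM throughout. The fold was 0.276 in WT and 0.109 in KO, an interaction of -1.34 ± 0.33 (DESeq2 adjusted p = 0.0239), and -1.10 without WT DIAM replicate 2, the highest of its group.

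Col1a1 had 8964, 9278, 10221 and 8571 CPM in WT DMEM and 7021, 10916, 8704 and 9231 in KO DMEM. Cells in DIAM had 4481, 5953, 3622 and 3780.5 CPM in WT and 1597, 2082, 2289 and 3253 in KO. The genotypes overlapped in DMEM and not in DIAM, where KO DIAM replicate 4 was the nearest to WT. Its interaction was -0.91 ± 0.28 (DESeq2 adjusted p = 0.0448) and -0.74 without WT DIAM replicate 2. Thbs2 had 432, 591, 342 and 334 CPM in WT DIAM and 148, 190.0, 205 and 258 in KO DIAM, and Col5a2 1293, 1411, 1115 and 1088 and 593, 678, 742 and 993. In DMEM the genotypes overlapped for both, with 1675 to 2098 CPM of Thbs2 in KO and 1843 to 2217 in WT.

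Ogn had 207, 212, 218 and 218 CPM in WT DMEM and 242, 194, 247 and 203 in KO DMEM. DIAM libraries held 119.8, 78.3, 150.3 and 199.6 CPM in WT and 257, 338, 332 and 240.1 in KO. The WT level was lower in DIAM (fold 0.641) and the KO level higher (fold 1.32), with an interaction of 1.04 ± 0.29. Among proteases and their inhibitors 7 of 22 were negative at p under 0.05 and none positive, and 4 were negative without WT DIAM replicate 2. DESeq2 called Adamts4, a protease of the proteoglycan aggrecan, and Timp1, an inhibitor of matrix metalloproteases. Timp1 had 368, 463, 285 and 289 CPM in WT DIAM and 213, 202, 221 and 231 in KO DIAM, from 261 to 341 in WT DMEM and 278 to 335 in KO DMEM. It was above all DMEM values in 2 of the 4 WT DIAM libraries and below all of them in the 4 KO DIAM libraries. Adamts4 had 29.1, 33.1, 23.5 and 24.8 CPM in WT DIAM and 10.98, 15.7, 16.4 and 21.04 in KO DIAM, with an interaction of -0.82 ± 0.22.

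**Figure D5:**
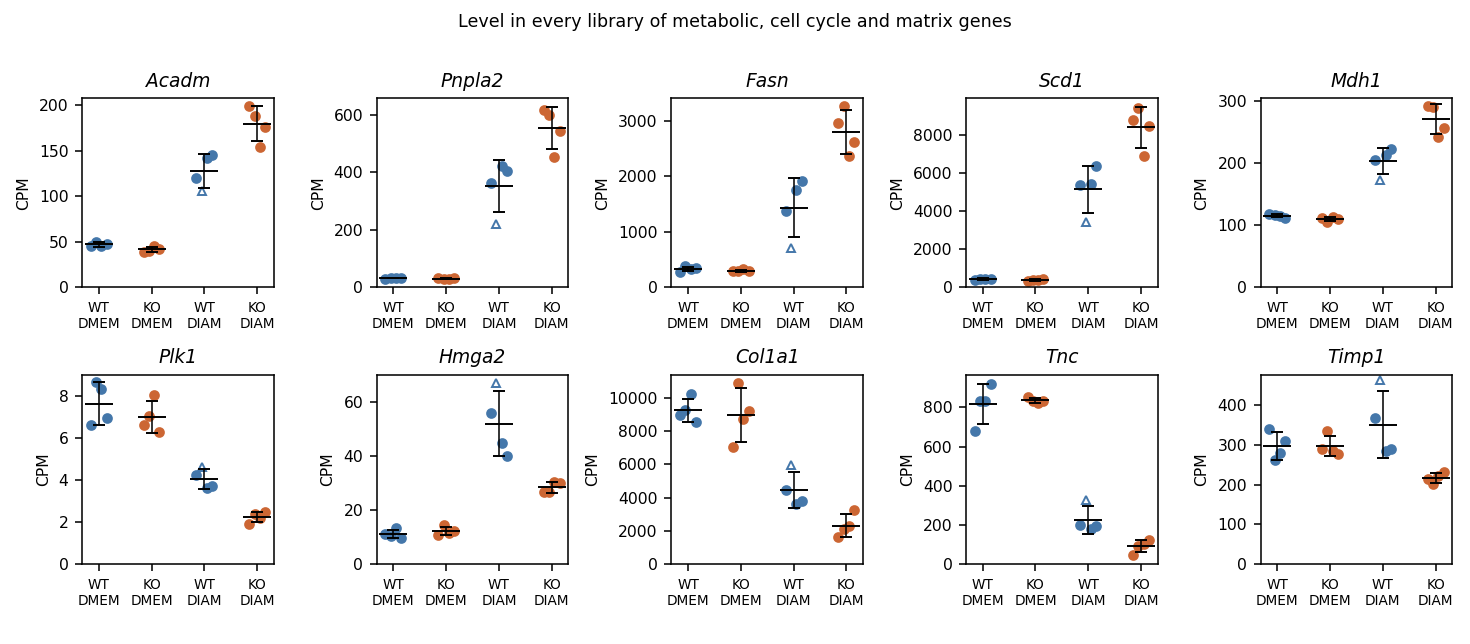
CPM (vertical axes, starting at 0) in each of the 16 libraries for genes of fatty acid breakdown, lipid storage and synthesis, the citrate cycle, the cell cycle, chromatin and matrix; blue is WT, orange KO, the open triangle WT DIAM replicate 2, and bars the mean and SD of 4 libraries. For Fasn the 4 KO DIAM libraries lie at 2356 to 3253 CPM and the WT DIAM libraries at 704 to 1908.

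Contractile genes were positive in 20 of 23 members with a median of 0.25, but none had p under 0.05. The member with the smallest p was Itga8, an integrin chain of smooth muscle, with 68.9, 46.1, 72.9 and 93.5 CPM in WT DIAM and 98.8, 113, 130.0 and 71.7 in KO DIAM, which overlapped (edgeR adjusted p = 0.336). The median was 0.11 without WT DIAM replicate 2, and up to 4 members had p under 0.05 when 1 library was left out. Genes of TGF-beta and BMP signalling had a median of 0.17, with 6 positive and 2 negative of 35 at p under 0.05. These were 0.10, 3 and 1 without WT DIAM replicate 2. Smad9, a BMP signal transducer, had the smallest p there, with 19.2, 12.9, 21.3 and 20.7 CPM in WT DIAM and 25.3, 28.4, 25.99 and 22.5 in KO DIAM.

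Ribosomal protein genes were negative in 28 of 28 members, with a median of -0.23 and 7 at p under 0.05. Rps6, a protein of the small subunit, had the smallest p, with 429, 451, 424 and 418 CPM in WT DIAM and 398, 380.3, 353 and 375 in KO DIAM. These genes have many near-identical pseudogene copies, among which estimated counts can be split. Without WT DIAM replicate 2 the median was -0.14, with 27 negative and 2 at p under 0.05, and over all 16 fits that left out 1 library the count at p under 0.05 ran from 1 to 24. Interferon-stimulated genes were negative in 26 of 31 members with a median of -0.33 and 6 at p under 0.05. The median was -0.15 without that library (4 at p under 0.05), -0.197 without WT DMEM replicate 3, -0.207 without KO DMEM replicate 1 and -0.189 without KO DMEM replicate 2. Irf1, a transcription factor of this response, had the smallest p, with 15.3, 18.5, 16.5 and 15.6 CPM in WT DIAM and 12.3, 13.3, 13.5 and 16.4 in KO DIAM. Of 28 inflammatory mediators 5 were negative and 2 positive at p under 0.05, and 4 and 0 without WT DIAM replicate 2. There Ccl7, a chemokine for monocytes, had 21.5, 24.1, 18.2 and 18.1 CPM in WT DIAM and 15.2, 12.4, 15.02 and 13.2 in KO DIAM, without overlap (DESeq2 adjusted p = 0.0618).

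Arginine is the substrate of the deleted enzyme. Of 26 genes that handle it or make polyamines or nitric oxide, 4 were positive and 6 negative at p under 0.05, with a median of -0.12, and 2 and 6 without WT DIAM replicate 2. DESeq2 called none of them. Gatm, which uses arginine to start creatine synthesis, had the smallest p. It had 4.09, 1.599, 2.43 and 3.29 CPM in WT DMEM, 2.48, 7.49, 1.66 and 3.71 in KO DMEM, 6.53, 9.2, 4.43 and 5.06 in WT DIAM and 2.74, 2.14, 1.78 and 3.58 in KO DIAM. KO DMEM replicate 2 was above the other DMEM libraries, and KO DIAM lay below WT DIAM (interaction -1.73 ± 0.58; DESeq2 adjusted p = 0.0748). DESeq2 called no member of the lists for the unfolded protein response, lysosome and autophagy, complement and acute phase, or osteochondrogenic genes. Mthfd2, Ctsk, Serpina3g and Phex had the smallest p in these lists, with interactions of 0.39, -0.78, -1.02 and 1.58. Ctsk was at -0.49 without WT DIAM replicate 2, and Phex at 1.04 without WT DMEM replicate 2. In the efflux and scavenger list it was Ch25h, at -1.11.

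Summed markers of other cell types did not overlap between the DIAM groups for the Schwann cell and neuronal, adventitial fibroblast and endothelial lists. They overlapped for the fat cell, leukocyte, mesothelial, erythroid, and cardiac and skeletal muscle lists. In bulk RNA fewer cells of a type and less RNA per cell cannot be told apart. Of 13 tested Schwann cell and neuronal markers 11 were negative, with a median of -1.15 and 4 at p under 0.05. Without WT DIAM replicate 2, which had the highest sum of its group, the median was -1.04 and 2 had p under 0.05. Their 17 genes summed to 457 to 960.0 CPM in WT DIAM and 139 to 318 in KO DIAM, against 125 to 199 in WT DMEM and 120 to 228 in KO DMEM. The groups did not overlap in DIAM, and no marker was at 0 throughout. Tubb3, a neuronal tubulin, had the smallest p, with 50.2, 60.9, 37.4 and 33.9 CPM in WT DIAM and 16.1, 17.4, 28.3 and 23.1 in KO DIAM. Markers of fat cells around vessels had a positive interaction in 6 of 6 tested genes, with a median of 0.74, and they share the fat storage program of the lipid droplet list. They summed to 1531 to 2396 CPM in WT DIAM and 2228 to 3287 in KO DIAM, which overlapped, against 59.5 to 104 in DMEM. Adrb3, the beta-3 adrenergic receptor of fat cells, had 31.8, 19.1, 31.7 and 33.2 CPM in WT DIAM and 50.5, 46.9, 38.3 and 39.4 in KO DIAM.

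Adventitial fibroblast markers summed to 14056 to 18315 CPM in WT DIAM and 20177 to 23053 in KO DIAM, while their median interaction was 0.027 over 14 genes, 8 of them positive. That median was 0.014 with 7 positive without WT DIAM replicate 2, and lay between -0.036 and 0.11 with any 1 library left out. Gsn, the actin-severing protein gelsolin, was called by DESeq2, with 10194, 8571, 12941 and 12382 CPM in WT DIAM and 14120.2, 16805, 15598 and 14665 in KO DIAM. Gsn made up 4275 of the 4915 CPM by which the mean sum in KO DIAM exceeded that in WT DIAM. Without it the markers summed to 5327 to 5629 CPM in WT DIAM and 5710 to 6361 in KO DIAM. Leukocyte markers were negative in 14 of 14 tested genes with a median of -0.36, and 1 had p under 0.05. The median was -0.16 without KO DMEM replicate 2, -0.19 without WT DMEM replicate 3 and -0.24 without WT DIAM replicate 4. With WT DIAM replicate 2 left out, 13 were negative and none had p under 0.05. Their sums overlapped in DIAM, at 1270 to 2188 CPM in WT and 1476 to 1950 in KO. Itgam, the alpha chain of a leukocyte integrin, had the smallest p, with 19.9, 25.4, 11.3 and 23.8 CPM in WT DIAM and 8.32, 11.5, 13.5 and 16.3 in KO DIAM. Endothelial markers were positive in 12 of 16 genes with a median of 0.15, and 2 were negative at p under 0.05. The median was 0.042 without WT DIAM replicate 2 and lay between 0.025 and 0.30 with any 1 library left out. The 16 genes summed to 273 to 340.0 CPM in WT DIAM and 159 to 253 in KO DIAM. Flt1, a receptor of vascular endothelial growth factor, had 174, 229, 120.4 and 133 CPM in WT DIAM and 59.4, 81.3, 88.6 and 108 in KO DIAM. The lower sum in KO DIAM came from Flt1: without it the markers summed to 111 to 161 CPM in WT DIAM and 99.4 to 172 in KO DIAM, which overlapped. Mesothelial sums overlapped, at 145 to 395 CPM in WT DIAM and 252 to 828 in KO DIAM, and their gene with the smallest p, Krt7, had an interaction of 0.34, which ran from 0.018 to 0.62 with 1 library left out. Erythroid markers summed to 2.96 to 8.51 CPM in WT DIAM and 6.43 to 12.5 in KO DIAM, and those of cardiac and skeletal muscle to 35.3 to 49.5 and 37.2 to 61.6. In the muscle list 3 of 4 tested genes were negative, with a median of -0.26 and none at p under 0.05. Myh1 had the smallest p there and was the positive one, with an interaction of 1.02. The part of these cell types in the metabolic, cell cycle and matrix values was not tested.

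WT DIAM replicate 2 moved with the same genes. It had the lowest level of its group for Acadm, Pnpla2, Fasn, Scd1 and Mdh1, and the highest for Hmga2, Col1a1, Tnc and Timp1. Without it all 2255 genes at p under 0.05 kept the sign of their interaction and 1485 kept p under 0.05. Their median absolute interaction was 0.39 (log2) with it and 0.33 without it. All 225 genes called by DESeq2 kept their sign, and 225 still had an unadjusted edgeR p under 0.05, while DESeq2 called 104 genes, 95 of them among the 225. Both sets were chosen with that library included, and the refit shares all its other libraries. Kept signs were thus close to fixed in advance and are no test.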

How the data were processed

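RNA of 16 cultures was depleted of ribosomal RNA and made into unstranded libraries, per the labels' protocols, so reads of overlapping antisense genes cannot be told apart. The submitters' processing notes list FastQC, Salmon (version 1.9.0), DESeq2 (version 1.46.0), R (version 4.4.2) and the build GRCm39, without their roles; counting options are not given in the sources used here. The labels call the deposited columns TPM, but they sum to 37221313 to 47626242 and differ between libraries, so the authors' values were taken as estimated counts per gene and rounded to whole numbers. The authors' deposited table also holds log2 fold changes, p-values and adjusted p-values for this contrast, and a mean signal per gene that was not used.

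Genes with at least 1 CPM in at least 4 libraries were fitted in R 4.3.3 with edgeR 4.0.16 (TMM, robust quasi-likelihood, 1 model over 16 libraries and 4 groups), with Benjamini-Hochberg adjustment at 0.05. The SE is the absolute log2 difference over the root of F, and intervals cover 95%. CPM values are scaled by TMM library sizes. DESeq2 1.42.0 and limma 3.58.1 served as alternatives. Scripts were tested on simulated data. The named genes are the 10 of smallest p, the member of smallest p of each list, Arg1, Arg2, Odc1 and Epor, and list members called by DESeq2, which were picked once their values were known; a few of these are not reported here. The contrast and the gene lists were chosen with earlier results of these data known. The main fit did not pair cultures by replicate number, and all libraries carry the same batch label. Gene coordinates of GRCm39 were not used here; promoters are those of RefSeq on GRCm38.p6, 1 per gene symbol.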

Additional observations from a re-analysis of the deposited data

Results flagged for a closer look

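By DESeq2 the response to the medium differed between the genotypes for 225 genes, while edgeR called 0 at adjusted p under 0.05 and 2255 before adjustment. In 10 of 376 groups of 4 libraries checked, 1 library lay far from the other 3, where chance gives about 18.8. WT DIAM replicate 2 was that library in 4 of them. It had 19.1 CPM of Adrb3 against 31.7 to 33.2 in the other WT DIAM libraries. It had 24.3 CPM of Serpina3g, a serine protease inhibitor, against 12.5 to 13.0, and 329 CPM of Tnc against 179 to 201. Its aortic smooth muscle identity genes summed to 1204 CPM against 1825 to 1952. Phex, an endopeptidase of bone cells, had 0.749 CPM in WT DIAM replicate 4 against 0.273 to 0.333, and 0.766 in KO DIAM replicate 3 against 1.16 to 1.22. Kif23 had 6.15 CPM in KO DMEM replicate 1 against 4.56 to 4.78 in the others. Bub1 had 1.505 CPM in KO DIAM replicate 4 against 0.875 to 0.971. Schwann cell and neuronal markers summed to 228 CPM in KO DMEM replicate 2 against 120 to 134, and endothelial markers to 159 in KO DIAM replicate 1 against 244 to 253.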

How the results depend on the processing

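The edgeR count of 0 held with median-ratio scaling, quantile normalization, no filter or a filter at 5 CPM, limma-voom with and without library weights, limma on log2(CPM + 1) and log2(CPM + 0.1), a minimum difference of 1 (log2), and no robust estimates. It was 225 with DESeq2, 234 by the authors' deposited adjusted p and 152 (48 positive) with edgeR's likelihood ratio test, which was added after seeing the data. Without 1 library it was 0 to 1, the 1 being Fam193b (interaction -1.12, edgeR adjusted p = 0.0253) without KO DMEM replicate 1. The cause was not tested. Genes at unadjusted p under 0.05 numbered 1560 to 2695 without 1 library, and 88 (9 positive) against a minimum difference of 1, a stricter hypothesis. The DESeq2 count was 35 to 601 without 1 library, 256 without a filter and 239 with the filter at 5 CPM; these fits were added after seeing the data. Each of the 82 tested genes chosen for naming kept its sign under all of the 31 alternatives that gave it a value. Of these genes 6 of low level were not tested with the filter at 5 CPM. Most were chosen for a small p, and the alternatives use the same libraries, so kept signs are no separate support. The signs of the list medians flipped under some setting for cholesterol synthesis, cholesterol efflux, proteases, osteochondrogenic, mesothelial, adventitial fibroblast, erythroid, and cardiac and skeletal muscle lists. Marker sums without Gsn or Flt1 were added after seeing the data. No scaling moved the median of all genes by more than 0.012. With unscaled group means 58.3% of the 2255 genes had the larger response in KO. Whether replicate numbers mark a pairing of cultures could not be settled. Deviations of the same number in DMEM and DIAM correlated at -0.094 to 0.27 in WT and 0.012 to 0.32 in KO. WT DIAM replicates 1, 3 and 4 and KO DIAM replicates 1 and 4 matched their own number in DMEM best, and the others did not. The main fit was unpaired. A replicate block of 4 levels gave 0 calls and 2458 genes at unadjusted p under 0.05, a block of 8 levels within genotype 0 and 2561, and DESeq2 with the block of 4 levels 254 calls.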

Other observations

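Enzymes of the pyruvate dehydrogenase complex and the citrate cycle were gathered into a list after their values were seen. Of the 26 genes all 26 were positive, with a median interaction of 0.37 and 20 at unadjusted edgeR p under 0.05, and with 18 of 26 at that level without WT DIAM replicate 2. DESeq2 called 8, among them Pdhb and Pdhx of the pyruvate dehydrogenase complex, Idh3b, Idh3g, Ogdh and Sucla2 of the cycle, and Mdh1, the cytosolic malate dehydrogenase. Mdh1 had 118, 116, 115 and 112 CPM in WT DMEM and 112, 105, 113 and 109 in KO DMEM. In DIAM it had 205, 173, 212 and 222 CPM in WT and 291, 289.9, 242 and 257 in KO. All KO DIAM libraries were above all WT DIAM libraries, with folds of 1.76 in WT and 2.46 in KO. Pdhb had 84.99, 67.1, 97.99 and 99.1 CPM in WT DIAM and 138, 139, 109 and 121 in KO DIAM. A list of propionate and branched-chain amino acid breakdown, gathered the same way, was positive in 22 of 24 genes with a median of 0.34 and 15 at p under 0.05. Mmut, the methylmalonyl-CoA mutase that feeds propionate carbon into the citrate cycle, had the smallest p, with 76.5, 72.96, 84.6 and 84.2 CPM in WT DIAM and 101, 105, 94.6 and 94.4 in KO DIAM. Since both lists were chosen for their values, their counts are a description.

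Other genes that DESeq2 called in each of the 16 fits leaving out 1 library were chosen for that reason after their values were seen. Acsl4 and Lpcat2 handle polyunsaturated chains, the first by activating arachidonate and the second by placing acyl chains into phospholipids. Acsl4 had 72.5, 71.4, 67.1 and 64.96 CPM in WT DIAM and 50.2, 48.2, 50.2 and 56.7 in KO DIAM, and 68.3 to 74.6 in WT DMEM and 66.6 to 75.3 in KO DMEM. The 4 KO DIAM libraries were below the other 12, opposite to the sign of most genes of lipid storage. Lpcat2 had 7.18, 10.3, 5.59 and 4.55 CPM in WT DIAM and 1.63, 2.21, 2.98 and 2.91 in KO DIAM. Tes, a protein of focal adhesions, had 46.9, 61.3, 31.4 and 31.7 CPM in WT DIAM and 10.2, 16.9, 16.5 and 20.1 in KO DIAM, with 27.5 to 43.6 and 27.9 to 41.3 in DMEM. Stard13 had 80.6, 71.2, 69.3 and 73.98 CPM in WT DIAM and 46.5, 53.9, 59.4 and 59.5 in KO DIAM. Both had all KO DIAM libraries below all WT DIAM libraries.

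Among the 6 positive genes of that set were Ptch1, Dbp and Map7d2. Ptch1, the Hedgehog receptor and itself a Hedgehog target, had 17.8, 16.4, 16.2 and 15.96 CPM in WT DMEM, 14.04, 12.4, 15.4 and 11.9 in KO DMEM, 15.4, 13.7, 15.6 and 14.6 in WT DIAM and 22.1, 19.1, 18.4 and 15.8 in KO DIAM. KO was thus below WT in every DMEM library and above it in every DIAM library. Dbp, a transcription factor driven by the circadian clock, had 39.97 to 41.1 CPM in WT DMEM and 38.1 to 40.6 in KO DMEM, and 10.7, 9.25, 10.5 and 10.2 in WT DIAM and 12.1, 12.6, 12.1 and 13.02 in KO DIAM. Map7d2, a microtubule-binding protein, went from 0.865 to 2.03 CPM in WT DMEM and 0.406 to 0.853 in KO DMEM to 51.9, 34.3, 58.9 and 57.03 in WT DIAM and 95.2, 91.2, 67.3 and 77.7 in KO DIAM. Its interaction was 1.65 ± 0.38, and its DMEM levels of about 1 CPM enter both folds.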
